A study of Rattus norvegicus with 14 samples.

Results

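The 10 genes followed here, whose part in mesothelioma is unclear, were measured on 14 arrays of rat peritoneal tissue: Myrf, Wfdc18, Anxa8, Klra5, A2m, Clic3, Gpr15lg, Tnn, Mal2 and Egfl6. They had been picked, from these same arrays, for large rises in tumors over control tissue with signals near background, so their tumor signals are given here against the controls as a description and without a test. They are 10 of 14217 genes with a probe set of their own, and are read by 11 such probe sets of 31042 in all, since Mal2 has 2. The arrays came from 11 malignant peritoneal mesotheliomas and 3 pieces of peritoneal tissue from sham-treated animals, all male Wistar rats, each tumor from a different animal. Each animal with a tumor had received 1 injection of fibers into the peritoneal cavity. The fibers were multiwalled carbon nanotubes (MWCNT), namely the preparations MWCNT B (given to 2 of the animals), MWCNT C (3) and MWCNT D (3), or amosite (3), a fibrous amphibole asbestos. The fibers were suspended in artificial lung medium. By histology 5 tumors were sarcomatoid (spindle-shaped cells), 3 epithelioid (epithelium-like cells) and 3 biphasic (both forms together). Sarcomatoid tumors occurred under every inducer, biphasic tumors under MWCNT C, MWCNT D and amosite, and epithelioid tumors under MWCNT B, MWCNT D and amosite.

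Mesothelial cells line the body cavities and carry both epithelial features, such as keratins and a polarized surface, and features of connective tissue. Epithelioid mesotheliomas keep much of the epithelial program, and sarcomatoid ones resemble mesenchymal tumors. The genes followed here fall into 5 kinds of role. Myrf encodes a membrane-anchored transcription factor that cleaves itself, sends its free part to the nucleus, and is best known for switching on myelin genes in oligodendrocytes. Mal2, Anxa8 and Clic3 encode proteins of membrane traffic in epithelial cells. Wfdc18 and A2m encode secreted proteins, A2m being a broad protease inhibitor and, in the rat, a classic acute phase protein of the liver under interleukin 6 and STAT3. Tnn and Egfl6 encode proteins of the extracellular matrix that integrins bind. Klra5 and Gpr15lg belong to immune recognition, the first as a Ly49 lectin receptor known from natural killer cells and the second as the ligand of the lymphocyte homing receptor GPR15.

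Signals are given as log2(signal + 1), the array intensity after addition of 1, and differences of sarcomatoid from the other tumors that involve values below 5 are also given with those values raised to 5 (the floor), since differences between very low signals carry little information. The median probe set had a signal of 96.9 to 104 on control arrays and of 129 to 154 on tumor arrays. The mean of 12 mesothelial genes ran from 4.05 to 5.90 on control arrays and from 7.09 to 11.5 on tumor arrays. That of 6 skeletal muscle genes was 15.3 to 15.4 on control and 4.29 to 4.82 on tumor arrays, so the control pieces held abundant muscle RNA and little mesothelial RNA. In such bulk tissue, fewer cells of a type and less RNA per cell cannot be told apart. MWCNT D replicate 2, labelled sarcomatoid, stood apart from the other tumors. It had the lowest mesothelial mean (7.09), with mesothelin (Msln) at 7.92 and Wt1 at 7.08, and the highest mean over 7 natural killer cell genes (10.1, against 5.07 to 7.62 in the other tumors). It and the epithelioid amosite replicate 1 also carried pancreatic enzyme RNA, with means over 8 genes of 14.7 and 15.4 against 5.53 to 6.09 in the other tumors. Results for the genes followed here that rest on these tumors are given with and without them.

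**Figure D1:**
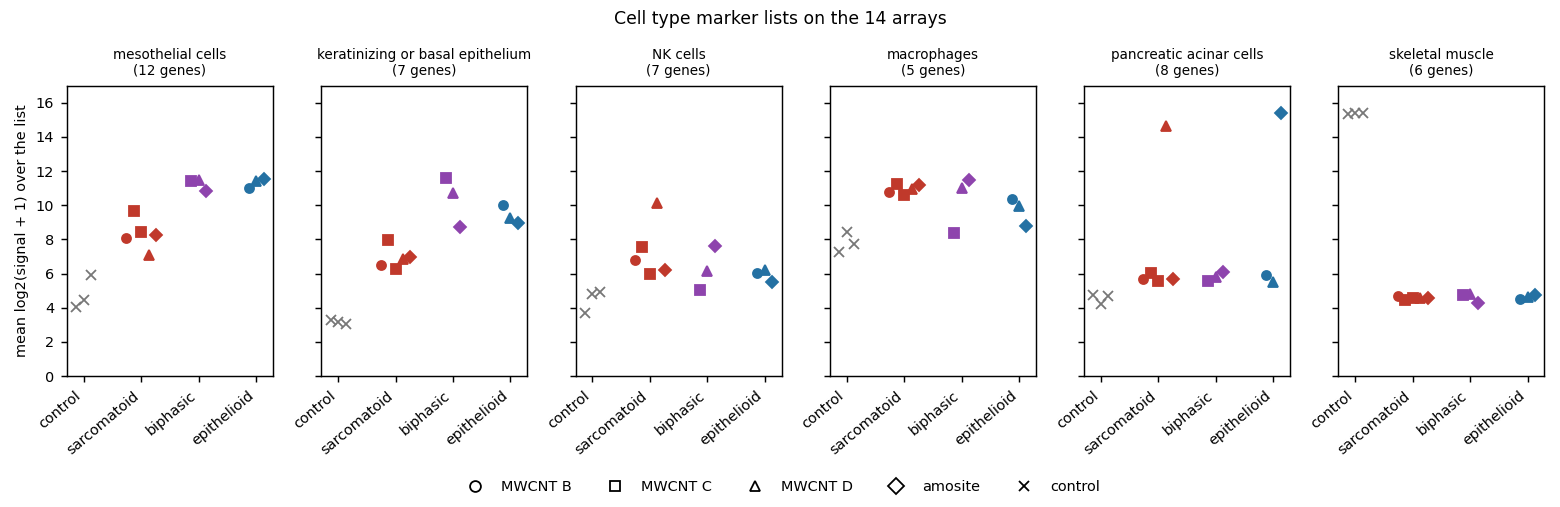
Mean log2(signal + 1) over the genes of 6 cell type marker lists (y axis) on each of the 14 arrays, grouped by tissue or tumor type (x axis), with the marker shape showing the inducer. Muscle genes were high in the 3 controls alone, pancreatic genes in 2 tumors alone, and the mesothelial mean of every sarcomatoid tumor (7.09 to 9.66) lay below that of every biphasic and epithelioid tumor (10.9 to 11.5).

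Promoter sequences of RefSeq on the GRCr8 assembly, 300 bases around the gene start, were found for 6 of the 10 genes (Wfdc18, Anxa8, Klra5, Clic3, Gpr15lg and Tnn). Those of 4 are shown 5′ to 3′ on the gene's strand, because they set genes with unlike patterns side by side: Wfdc18, Anxa8 and Clic3 were lower in every sarcomatoid than in every epithelioid tumor, and the values of Gpr15lg overlapped between all tumor types. Capitals mark matches, on either strand, to any of 6 short motifs named after the factors or elements they are known from. The STAT motif was searched for as TTCNNNGAA and that of AP-1 as TGANTCA, and the letters for TEAD factors were GGAATG. The TATA box was taken as TATAAA, the GC box was taken to read GGGCGG, and the CCAAT box has its letters as its name. No match in these 4 overlapped another.
Wfdc18 (chr10:69086069-69086368, plus strand): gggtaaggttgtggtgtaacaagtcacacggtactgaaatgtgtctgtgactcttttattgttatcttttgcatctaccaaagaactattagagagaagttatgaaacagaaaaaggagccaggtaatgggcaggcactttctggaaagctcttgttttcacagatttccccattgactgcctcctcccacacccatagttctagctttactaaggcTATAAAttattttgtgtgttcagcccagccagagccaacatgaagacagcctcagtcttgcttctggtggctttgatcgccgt
Anxa8 (chr16:9403137-9403436, plus strand): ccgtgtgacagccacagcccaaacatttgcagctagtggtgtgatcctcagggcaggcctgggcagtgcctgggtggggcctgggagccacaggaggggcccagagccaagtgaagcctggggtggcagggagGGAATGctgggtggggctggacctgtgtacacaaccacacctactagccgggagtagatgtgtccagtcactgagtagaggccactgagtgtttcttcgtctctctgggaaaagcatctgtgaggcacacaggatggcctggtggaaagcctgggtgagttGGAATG
Clic3 (chr3:28670005-28670304, plus strand): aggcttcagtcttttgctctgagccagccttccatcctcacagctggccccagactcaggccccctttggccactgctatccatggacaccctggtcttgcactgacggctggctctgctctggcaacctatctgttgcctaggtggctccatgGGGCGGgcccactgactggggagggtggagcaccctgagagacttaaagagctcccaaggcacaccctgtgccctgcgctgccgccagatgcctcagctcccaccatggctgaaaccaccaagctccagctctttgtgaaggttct
Gpr15lg (chr16:12896085-12896384, minus strand): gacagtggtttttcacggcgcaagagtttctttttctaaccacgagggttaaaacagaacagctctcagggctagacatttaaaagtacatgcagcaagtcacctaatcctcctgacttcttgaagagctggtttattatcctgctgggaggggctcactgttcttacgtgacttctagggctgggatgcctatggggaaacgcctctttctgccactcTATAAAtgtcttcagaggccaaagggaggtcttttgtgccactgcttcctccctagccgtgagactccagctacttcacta
The Wfdc18 and Gpr15lg promoters each held a TATA box, its first base at -33 and -31 with the gene start as 0, which 14.2% of all 33469 rat promoters of this length hold anywhere. The Anxa8 promoter held 2 TEAD matches and that of Tnn 1, against 14.2% of all promoters with a match. The Clic3 promoter held 1 GC box (33.1% of all promoters), and the Tnn promoter 1 CCAAT box (37.5%). No STAT or AP-1 match was present in any of the 6 promoters, against 8.87% and 7.33% of all promoters. These matches describe the letters of the window and are not sites shown to be bound.

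Against the controls, every tumor had a higher signal than every control for 6 of the 10 genes (Myrf, Wfdc18, Anxa8, Klra5, A2m and Tnn), a pattern that 28.1% of all probe sets showed. With values below 5 raised to 5 it held for 4 (Myrf, Wfdc18, Anxa8 and Klra5), against 24.9% of all probe sets, since 2 tumors for A2m and 3 for Tnn were below 5 like the controls. Of all probe sets, 24.5% were called higher in tumors by limma, a call being an adjusted p below 0.05 together with a change of more than 2-fold, and 10.4% were called lower. This split depends on the scaling, with 15.5% higher and 17.7% lower after centring each array on its median and 16.9% higher and 15.4% lower after quantile normalization. The counts of related genes called against controls, given below, are to be read beside these shares. The median difference of the 10 genes, mean of the tumors minus mean of the controls, was 7.88 on the log2(signal + 1) scale and 3.71 with values below 5 raised to 5. All 3 controls were below 5 for 9 of the 10 genes. Egfl6 was the exception, at 5.38, 6.66 and 5.93 in the controls, and its mean over the tumors was 0.29 lower than over the controls (-0.29) or, with the floor at 5, 0.66 higher (0.66). The description under which the genes were picked, a large rise over near-background controls, therefore did not hold for Egfl6 over the tumors as a whole.

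**Figure D2:**
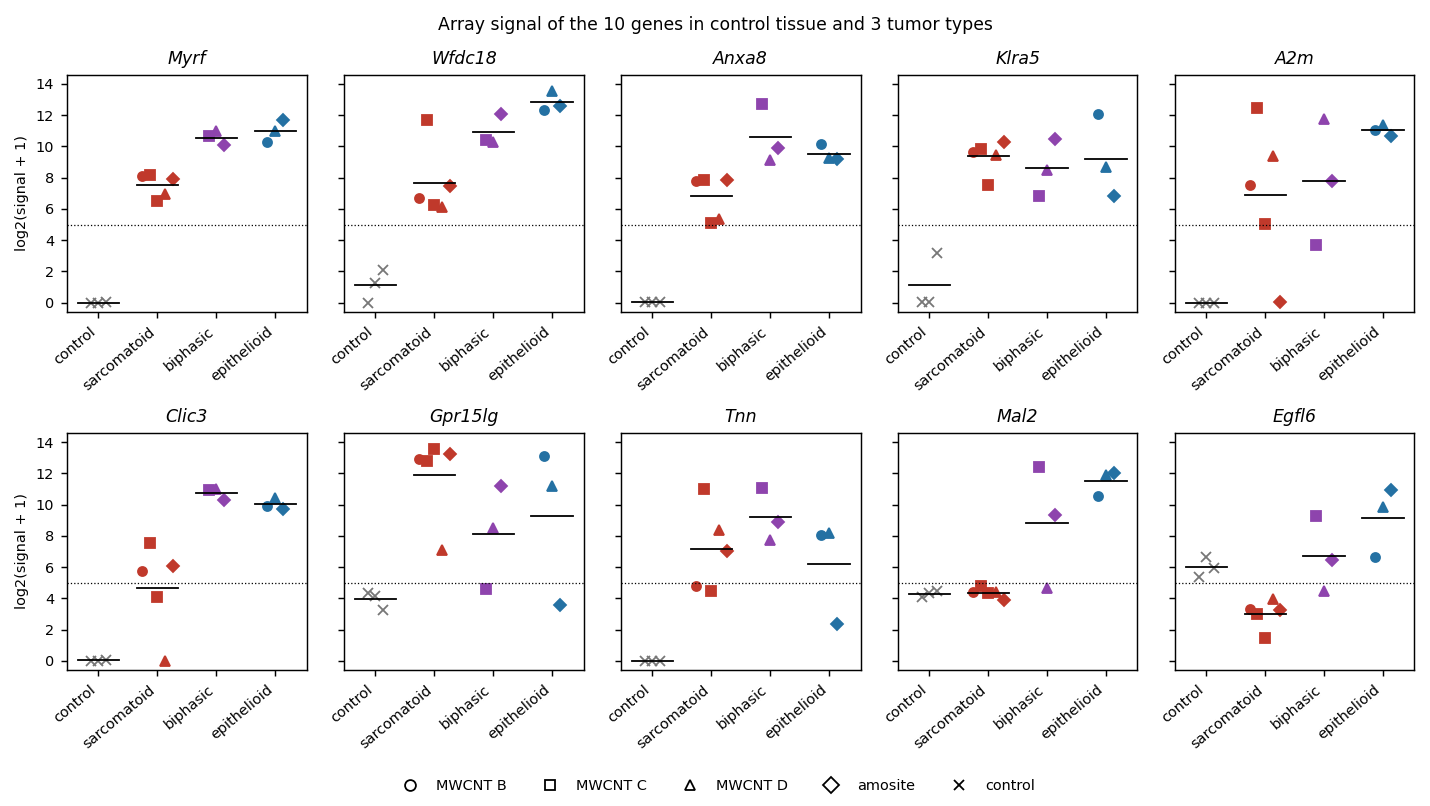
Log2(signal + 1) of the 10 genes (y axis, 1 panel for each gene) in the 3 controls, 5 sarcomatoid, 3 biphasic and 3 epithelioid tumors (x axis), with marker shapes for the inducer, bars for group means and a dotted line at 5. Myrf, Clic3, Anxa8, Wfdc18, Mal2 and Egfl6 were lower in every sarcomatoid than in every epithelioid tumor, and the sarcomatoid tumors of Mal2 and Egfl6 lay near (Mal2) or below (Egfl6) the controls.

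Of the 10 genes, 6 had every sarcomatoid tumor below every epithelioid tumor (Myrf, Wfdc18, Anxa8, Clic3, Mal2 and Egfl6), against 5.84% of all probe sets, and 4 of them (Myrf, Anxa8, Clic3 and Egfl6) also had every sarcomatoid tumor below every biphasic tumor, against 3.33%. The tumor types were compared in 1 limma fit of the 11 tumors, with p-values adjusted over all probe sets. In sarcomatoid against epithelioid tumors 1 of the 10 genes, Myrf, passed, and 0.126% of all probe sets were called lower. At an unadjusted p below 0.05 stood 6 of the 10, all lower in sarcomatoid tumors, and 10.9% of all probe sets in either direction. In sarcomatoid against biphasic tumors none of the 10 passed limma's adjusted test, as 0.0322% of all probe sets were called lower, and 6 of the 10 had an unadjusted p below 0.05, with 7.66% of all probe sets. Mal2 and Egfl6 could meet the rule that picked the genes only through tumors other than sarcomatoid ones, their sarcomatoid mean differing from that of the controls by 0.07 and -2.99, so their place in these counts is fixed by the choice and their differences between tumor types are given below with no test. Without them, 4 of 8 genes had every sarcomatoid below every epithelioid tumor and 3 of 8 below every biphasic one, and 4 of 8 had an unadjusted p below 0.05 in each of the comparisons. Clic3 is among the genes in each of these counts. With values below 5 raised to 5 its sarcomatoid mean lay only 0.87 above the controls, so its place may also be fixed in part by the choice. For single genes the difference of means was also tested by exact permutation, two-sided, in each of 5 comparisons, which made 50 tests (those of Mal2 and Egfl6 between sarcomatoid and other tumors are not used) with p-values that are not adjusted. With 5 against 3 tumors the smallest p such a test can give is 0.018.

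**Figure D3:**
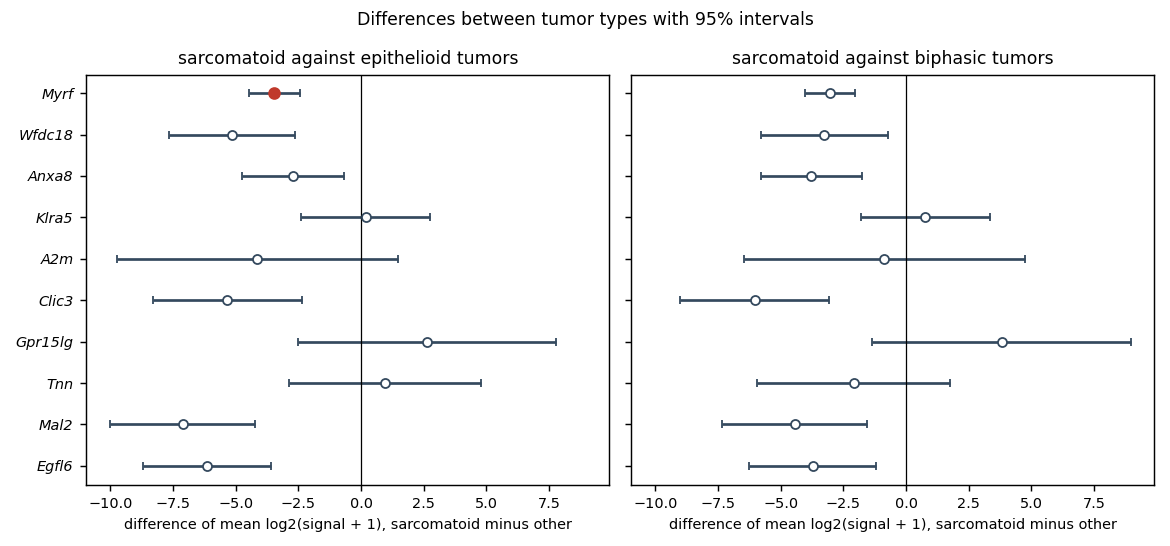
Difference of mean log2(signal + 1), sarcomatoid minus epithelioid (left) and sarcomatoid minus biphasic tumors (right), for the 10 genes (y axis), with 95% intervals from the limma fit of 11 tumors (n = 5, 3 and 3). The filled point is Myrf against epithelioid tumors, the difference that passed the adjusted test, the intervals of A2m, Klra5, Gpr15lg and Tnn include 0 in both panels, and the positions of Mal2 and Egfl6 are fixed in part by how the genes were picked.

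Myrf was the gene of the 10 with an adjusted call between tumor types. In the following, values of sarcomatoid tumors are given in the order MWCNT B replicate 2, MWCNT C replicates 1 and 2, MWCNT D replicate 2 and amosite replicate 3, those of biphasic tumors in the order MWCNT C replicate 3, MWCNT D replicate 3 and amosite replicate 2, and those of epithelioid tumors in the order MWCNT B replicate 1, MWCNT D replicate 1 and amosite replicate 1. Myrf was at 8.11, 8.15, 6.51, 6.95 and 7.92 in sarcomatoid, 10.64, 10.99 and 10.08 in biphasic and 10.28, 10.98 and 11.69 in epithelioid tumors, and between 0.01 and 0.03 in the controls. The sarcomatoid tumors thus formed a group between the controls and the other tumors, with no overlap on either side. Sarcomatoid tumors were lower than epithelioid tumors by -3.45 ± 0.45 (SE, limma, adjusted p = 0.028; exact permutation p = 0.018). With the floor, which moves no Myrf value among tumors, the limma adjusted p was 0.048. Against biphasic tumors the difference was -3.04 ± 0.45 (SE), with a limma adjusted p of 0.058 and an exact permutation p of 0.018. Biphasic and epithelioid tumors differed by less than their spread (-0.41, 95% interval -1.54 to 0.71, limma adjusted p = 1). Within an inducer that had both types, 1 tumor each, sarcomatoid minus epithelioid was -2.17 for MWCNT B, -4.04 for MWCNT D and -3.77 for amosite. The call against epithelioid tumors was lost when any of 5 tumors was left out, with limma adjusted p = 0.11 without MWCNT D replicate 1, 0.059 without MWCNT C replicate 2, 0.065 without MWCNT B replicate 2, 0.18 without amosite replicate 1 and 0.053 without amosite replicate 3, while the difference stayed between -3.81 and -3.10. Without MWCNT D replicate 2 and amosite replicate 1 together it was -2.96 (limma adjusted p = 0.15).

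Of 15 other measured partners and myelin targets of MYRF, 1 was called in sarcomatoid against epithelioid tumors: Tmem98, whose protein binds MYRF and restrains its self-cleavage, was lower by -2.51 ± 0.38 (SE, limma, adjusted p = 0.047). Against biphasic tumors Tmem98 differed by -2.28 ± 0.38 (SE, limma adjusted p = 0.085). Its mean was 7.85 in controls, 9.14 in sarcomatoid, 11.41 in biphasic and 11.65 in epithelioid tumors, the same order as Myrf. Over the 11 tumors Pearson's r of Myrf and Tmem98 was 0.92, and 0.81 within the 6 biphasic and epithelioid tumors. The median difference of the 15 genes was 0.08 in sarcomatoid against epithelioid tumors, where that of all probe sets was -0.03. The myelin genes Mog and Mag, whose transcription MYRF is known to raise in oligodendrocytes, had group means from 5.72 to 6.69 and from 5.83 to 6.16, controls included. Mbp, also a myelin gene, had a mean of 9.85 in controls and 8.09 in tumors, and Cnp of 8.35 and 9.92. Over the 11 tumors Pearson's r with Myrf was -0.25 for Mbp and -0.45 for Cnp. Within the 6 biphasic and epithelioid tumors it was 0.53 and -0.34. Against controls limma called 3 of the 15 genes higher in tumors and 1 lower. Of 5 oligodendrocyte and Schwann cell markers measured, Mog, Mag and Mbp among them, 0 were called by limma in any comparison among tumors. Against controls 1 of these markers was called lower in tumors.

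Mal2, a proteolipid that carries cargo to the apical surface of epithelial cells, stayed near its control level in the sarcomatoid tumors. The controls were at 4.08, 4.34 and 4.48. Sarcomatoid tumors were at 4.41, 4.78, 4.33, 4.41 and 3.92, biphasic tumors at 12.43, 4.68 and 9.35, and epithelioid tumors at 10.57, 11.88 and 12.02. The biphasic MWCNT D replicate 3 thus sat with the sarcomatoid tumors, and the other 5 biphasic and epithelioid tumors far above them. As a description, sarcomatoid minus epithelioid was -7.12 (-6.49 with the floor) and sarcomatoid minus biphasic -4.45 (-3.93 with the floor). The other probe set of Mal2 gave -5.67 and -3.16 for these differences and placed the sarcomatoid MWCNT C replicate 1 at 6.28, above its controls (3.09 to 3.73). Of 12 other genes of the MAL family and of apical sorting, 7 were called higher in tumors than in controls and 0 in any comparison among tumors.

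Egfl6, a secreted protein with EGF-like repeats that binds integrins, had the same order of types, and in sarcomatoid tumors lay below the control tissue. Sarcomatoid tumors were at 3.31, 3.02, 1.48, 3.98 and 3.23, each under the lowest control (5.38). Biphasic tumors were at 9.26, 4.48 and 6.47 and epithelioid tumors at 6.67, 9.86 and 10.94. The epithelioid mean lay 3.17 above and the sarcomatoid mean -2.99 below that of the controls, the latter being -0.99 with the floor, under which all sarcomatoid tumors are at 5. As a description, sarcomatoid minus epithelioid was -6.16 (-4.16 with the floor) and sarcomatoid minus biphasic -3.73 (-1.91 with the floor). None of the 8 other measured genes of its family or of related matrix proteins was called among tumor types by limma.

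Clic3, of the chloride intracellular channel family, and Anxa8, a phospholipid-binding annexin, were both lower in every sarcomatoid tumor than in any other tumor. Clic3 was at 5.72, 7.53, 4.10, 0.02 and 6.10 in sarcomatoid, 10.92, 11.00 and 10.29 in biphasic and 9.93, 10.44 and 9.71 in epithelioid tumors. The sarcomatoid tumor MWCNT D replicate 2 was thus within the range of the controls (0.00 to 0.08), and it is also the tumor with the lowest mesothelial and highest natural killer cell mean. Their part in the Clic3 value was not tested. For Clic3, sarcomatoid minus epithelioid was -5.33 ± 1.34 (SE, limma adjusted p = 0.17; exact permutation p = 0.036). It passed with the floor, under which 2 sarcomatoid values were raised (-4.16, limma adjusted p = 0.045), and without that tumor (-4.16, limma adjusted p = 0.048). With the floor the Clic3 mean of sarcomatoid tumors lay 0.87 above the controls, against 5.03 for epithelioid and 5.74 for biphasic tumors. On that scale its large rise came through the other types. The passes of Clic3 with the floor or without MWCNT D replicate 2, here and against biphasic tumors, may thus follow in part from how the genes were picked. Sarcomatoid minus biphasic was -6.04 ± 1.34 (SE, limma adjusted p = 0.20; exact permutation p = 0.018), -4.87 with the floor (limma adjusted p = 0.073) and -4.87 without MWCNT D replicate 2 (limma adjusted p = 0.047). Leaving out other single tumors instead took the limma adjusted p of Clic3 up to 0.49 against epithelioid and 0.52 against biphasic tumors. None of the other 4 measured genes of the CLIC family was called by limma in either comparison. Against controls 2 of them were called higher in tumors and 1 lower, the latter being Clic5, with means of 10.02 in controls and 6.42 in tumors.

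Anxa8 was at 7.81, 7.85, 5.11, 5.38 and 7.88 in sarcomatoid, 12.68, 9.16 and 9.91 in biphasic and 10.15, 9.27 and 9.18 in epithelioid tumors, with controls from 0.02 to 0.04. The biphasic MWCNT C replicate 3 was the highest. Sarcomatoid minus biphasic was -3.78 ± 0.91 (SE, limma adjusted p = 0.25; exact permutation p = 0.018) and sarcomatoid minus epithelioid -2.73 ± 0.91 (SE, limma adjusted p = 0.31; exact permutation p = 0.071). Among 11 other annexins and their S100 partners, 8 were called higher in tumors than in controls (median difference 2.08, against 0.34 over all probe sets). None of them was called between tumor types by limma. In sarcomatoid against epithelioid tumors their median was 0.29, on the other side of 0 from Anxa8, with 9 of 11 differences above 0. Against biphasic tumors it was -0.20, on the same side as Anxa8, with 7 of 11 below 0. The mean of Anxa3 was 10.60 in sarcomatoid, 12.83 in biphasic and 12.57 in epithelioid tumors.

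Wfdc18, a small secreted protein with a whey acidic protein domain, was at 6.73, 11.69, 6.24, 6.15 and 7.49 in sarcomatoid, 10.40, 10.28 and 12.08 in biphasic and 12.32, 13.53 and 12.59 in epithelioid tumors. The controls were at 0.01, 1.27 and 2.09. The sarcomatoid MWCNT C replicate 1 thus lay among the biphasic tumors, with the next highest of its type at 7.49. For Wfdc18, sarcomatoid minus epithelioid was -5.15 ± 1.13 (SE, limma adjusted p = 0.12; exact permutation p = 0.018). Without MWCNT C replicate 1 the difference was -6.16 and passed (limma adjusted p = 0.0032), and that from biphasic tumors went from -3.26 (limma adjusted p = 0.50) to -4.27 (limma adjusted p = 0.018). Leaving out other single tumors instead took the limma adjusted p of Wfdc18 up to 0.39 against epithelioid and 0.78 against biphasic tumors. Of the 11 other measured genes with this domain or a related inhibitor domain, 4 were called higher and 1 lower in tumors than in controls and 0 between tumor types. Their mean, though, split the types as Wfdc18 did. It was 6.25 to 7.18 in sarcomatoid, 7.76 to 8.37 in biphasic and 7.93 to 8.20 in epithelioid tumors. Wfdc21, a gene of the same domain family named after its values were seen, was also high in MWCNT C replicate 1 (12.22, against 5.35 to 7.81 in the other sarcomatoid tumors). Over the 11 tumors Pearson's r with Wfdc18 was 0.81 for Wfdc21, 0.65 for Wfdc2 and -0.06 for Slpi. Within the 6 biphasic and epithelioid tumors it was -0.78, -0.04 and 0.78.

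A2m had the widest error of the 10 genes between tumor types. It was at 7.53, 12.49, 5.06, 9.41 and 0.02 in sarcomatoid, 3.72, 11.78 and 7.81 in biphasic and 11.08, 11.39 and 10.64 in epithelioid tumors, with the controls at 0.01. The epithelioid tumors thus lay close together (SD 0.37, n = 3), and amosite replicate 3 had a signal barely above the controls. For A2m the sarcomatoid minus epithelioid difference was -4.13 ± 2.52 (SE, 95% interval -9.74 to 1.47, limma adjusted p = 0.59; exact permutation p = 0.21), and -3.14 with the floor (limma adjusted p = 0.63). Of 19 measured acute phase and STAT3 genes, 10 were called higher in tumors than in controls and none lower (median difference 1.73). The highest A2m value fell in MWCNT C replicate 1, where interleukin 6 (Il6, 9.33), oncostatin M (Osm, 9.29) and Socs3 (9.32), a feedback inhibitor of STAT3 signaling, were also at their highest of all arrays. Over the 11 tumors, with values below 5 raised to 5, Pearson's r with A2m was 0.74 for Il6 and 0.75 for Socs3, 0.37 for Stat3 itself and 0.09 for albumin (Alb), a hepatocyte marker. It was 0.55 for Osm and, of the acute phase genes, 0.54 for Lbp and 0.53 for Lcn2. Within the 6 biphasic and epithelioid tumors r was 0.61 for Il6, 0.74 for Socs3, 0.49 for Osm and 0.27 for Lcn2. There it was -0.0018 for Lbp, -0.37 for Stat3 and 0.16 for Alb. Hepatocyte markers as a list (6 genes) had means of 5.11 to 5.54 in controls and 5.20 to 6.37 in tumors, none called higher in tumors by limma. None of 6 other measured genes of the alpha-2-macroglobulin family was called between tumor types by limma.

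Tnn, tenascin N, a matrix glycoprotein of developing and tumor stroma, was at 4.80, 10.97, 4.47, 8.37 and 7.05 in sarcomatoid, 11.05, 7.74 and 8.87 in biphasic and 8.05, 8.17 and 2.33 in epithelioid tumors. The controls were between 0.00 and 0.01. Each type overlapped the others, and the lowest tumor was the epithelioid amosite replicate 1, which carried pancreatic RNA. The sarcomatoid minus epithelioid difference of Tnn was 0.95 ± 1.73 (SE, 95% interval -2.90 to 4.79) and sarcomatoid minus biphasic -2.09 ± 1.73 (SE, 95% interval -5.93 to 1.75), with limma adjusted p = 0.88 and 0.85. With the floor they were 0.21 and -1.94. Without amosite replicate 1 the first of these turned to -0.98. Of 10 other tenascins, tenascin-binding integrins and matrix partners measured, 4 were called higher and 1 lower in tumors than in controls, and none between tumor types by limma.

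Klra5 was at 9.68, 9.83, 7.53, 9.44 and 10.31 in sarcomatoid, 6.85, 8.46 and 10.47 in biphasic and 12.05, 8.67 and 6.81 in epithelioid tumors. The controls were at 0.07, 0.04 and 3.21, so all tumors lay above them while the tumor types overlapped. For Klra5 sarcomatoid minus epithelioid was 0.18 (95% interval -2.39 to 2.75, limma adjusted p = 0.97). Some Ly49 genes are close copies of one another, so a probe set annotated to Klra5 alone may still read relatives. The tumor with the highest Klra5, MWCNT B replicate 1, had a natural killer cell mean of 6.06, and MWCNT D replicate 2, with 10.1, had Klra5 at 9.44. Over the 11 tumors r of Klra5 with receptors of natural killer cells was 0.41 for Klrd1, 0.51 for Klrk1 and 0.11 for Ncr1, and within the 6 biphasic and epithelioid tumors 0.56, 0.53 and 0.38. With genes of macrophages and other myeloid cells it was 0.80 for Csf1r, 0.71 for Adgre1, 0.70 for Tyrobp, which natural killer cells also express, and 0.58 for Cd68, and within the 6 tumors 0.84, 0.71, 0.81 and 0.71. Macrophage genes (5 genes) had means of 7.27 to 8.41 in controls and 8.35 to 11.5 in tumors. The part of either cell type in the Klra5 signal was not tested. Of 11 other measured lectin receptors of natural killer cells, 3 were called higher in tumors than in controls and 0 among tumor types.

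Gpr15lg, like Klra5, had its highest mean in sarcomatoid tumors. It was at 12.91, 12.82, 13.53, 7.09 and 13.21 in sarcomatoid, 4.63, 8.51 and 11.18 in biphasic and 13.11, 11.19 and 3.56 in epithelioid tumors, with controls at 4.36, 4.16 and 3.28. Of the sarcomatoid tumors 4 lay between 12.82 and 13.53, and MWCNT D replicate 2 far below them, while the epithelioid amosite replicate 1 was within the range of the controls. Gpr15lg in sarcomatoid minus epithelioid tumors was 2.62 ± 2.32 (SE, 95% interval -2.53 to 7.77, limma adjusted p = 0.72; exact permutation p = 0.38) and sarcomatoid minus biphasic 3.81 ± 2.32 (SE, 95% interval -1.34 to 8.96, limma adjusted p = 0.78; exact permutation p = 0.12). With the floor these differences were 2.14 and 3.68. The low values of MWCNT D replicate 2 and amosite replicate 1 are in tumors that carried pancreatic RNA, and the biphasic MWCNT C replicate 3, at 4.63, did not carry it. Without amosite replicate 1 the first difference was -0.24, without MWCNT D replicate 2 the differences were 3.83 and 5.01, and without both they were 0.96 and 5.01. Of 5 other measured genes of the GPR15 axis, which hold integrin and chemokine receptors of homing lymphocytes, 3 were called higher in tumors than in controls and 0 among tumor types.

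**Figure D4:**
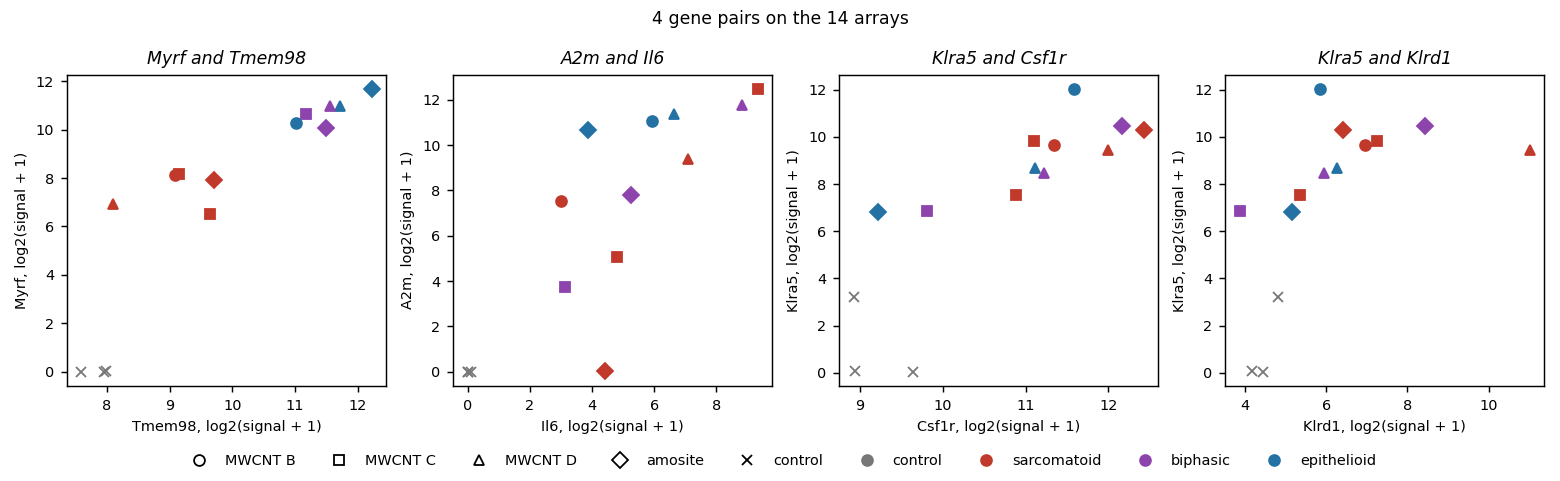
Log2(signal + 1) of Myrf against Tmem98, A2m against Il6, and Klra5 against Csf1r and Klrd1, each point being 1 of the 14 arrays, with color for tumor type and marker shape for inducer. The pairs were chosen after their values were seen. Myrf and Tmem98 were both lowest, among tumors, in the sarcomatoid ones, A2m and Il6 were both highest in MWCNT C replicate 1, and the tumor with the highest Klrd1 (11.01) was not the one with the highest Klra5.

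In biphasic against epithelioid tumors, 3 of each, none of the 10 was called by limma, 0% of all probe sets being called. None had an unadjusted limma p below 0.05, with 3.61% of all probe sets. The limma fit pools the spread over the 3 tumor types, so it does not measure the spread of these types alone. For Clic3 the SD was 2.89 in sarcomatoid, 0.39 in biphasic and 0.38 in epithelioid tumors. Wfdc18 alone had every biphasic tumor below every epithelioid one (-1.89, 95% interval -4.71 to 0.93), with an exact permutation p of 0.10, the smallest that 3 against 3 tumors allow. The widest interval was that of A2m (-9.54 to 3.01), which leaves room for large differences at these numbers of tumors.

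No gene of the 10 was set apart by inducer. In MWCNT against amosite tumors (8 against 3, each inducer weighted equally) none was called by limma and none had an unadjusted p below 0.05, against 0% and 3.58% of all probe sets. Differences ran from -1.65 for Egfl6 (95% interval -6.53 to 3.23) to 2.92 for A2m (95% interval -2.55 to 8.40). In MWCNT B and C against MWCNT D tumors (5 against 3) again none was called or had an unadjusted p below 0.05, against 0.00322% and 5.46% of all probe sets, and the differences ran from -2.66 for A2m (95% interval -8.58 to 3.26) to 2.74 for Gpr15lg (95% interval -3.05 to 8.53). Exact permutation p-values were at least 0.27 in these 2 comparisons. They test the difference of plain means over the arrays, not the differences given here, in which inducers weigh equally. Each inducer held 2 or 3 tumors of different types. Gpr15lg in the 2 MWCNT B tumors (12.91 and 13.11, SD 0.15) and Tnn in the 3 MWCNT D tumors (7.74 to 8.37, SD 0.32) varied little across types, against SDs of 2.08 to 5.09 and 2.30 to 3.78 for these genes under the other inducers. Klra5 also varied less in the MWCNT D tumors (SD 0.52) than under the other inducers (1.56 to 2.07). These cases were picked after all values were seen, and the differences in spread were not tested.

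The likeness of the genes to each other was described by Pearson's r over the 11 tumors, with values below 5 raised to 5. Myrf, Clic3, Anxa8, Wfdc18, Mal2 and Egfl6 formed a block, with r from 0.59 to 0.94 between any 2 of them. The closest pairs were Myrf with Clic3 (0.94) and Mal2 with Egfl6 (0.92). Within the 6 biphasic and epithelioid tumors Mal2 and Egfl6 kept an r of 0.86, and of the 15 pairs they alone had an r above 0.6 there. The r of 6 of the 15 pairs was below 0 within these tumors, among them Myrf with Clic3 (-0.17), Wfdc18 with Clic3 (-0.72), Wfdc18 with Anxa8 (-0.50) and Clic3 with Mal2 (-0.44), so the block rested mainly on the step between sarcomatoid and other tumors. Gpr15lg had r from -0.58 to -0.17 with these 6 genes and 0.65 with Klra5 (0.93 within the 6 tumors). All values share the same 11 arrays, so the r values are not independent of one another.

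**Figure D5:**
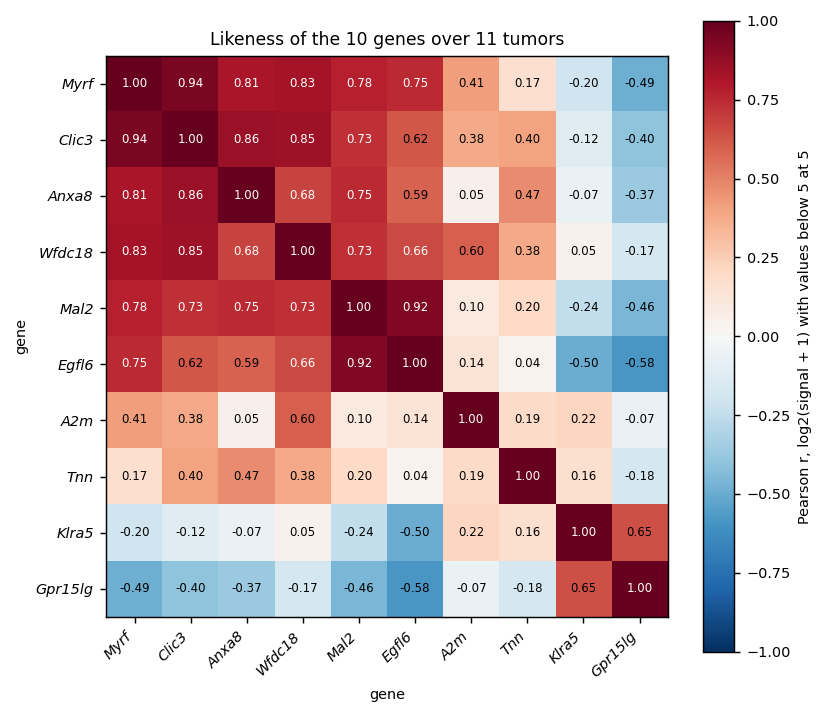
Pearson's r between the log2(signal + 1) values of each 2 of the 10 genes over the 11 tumors, with values below 5 raised to 5 (color scale from -1 to 1, r printed in each cell). Myrf, Clic3, Anxa8, Wfdc18, Mal2 and Egfl6 form a block of positive values, and Gpr15lg has negative values with each of them.

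For each gene the 3 genes most like it over the tumors were looked up among 1801 genes with a floored SD of at least 1. Those of Myrf were Tmem151a (r = 0.97), Crb2 (0.96), a polarity protein, and Bnc1 (0.96), a zinc finger protein of keratinocytes and mesothelial cells. Clic3 was most like the keratins Krt14 and Krt7 (0.98 each) and the tetraspanin Tspan8 (0.97). Anxa8 was most like Duox2 (0.92), an oxidase of epithelial surfaces, Krt14 (0.90) and Gpt2 (0.88), and Wfdc18 most like Pdzrn3 (0.95), Sbsn (0.94) and Ier3 (0.93). Both Mal2 (0.95) and Egfl6 (0.97) had Arhgap44 among their 3, beside Smtnl2 (0.95) and Gstm2 (0.93) for Mal2 and Coro6 (0.96) and Tlcd5 (0.95) for Egfl6. For Klra5 they were Pilra (0.94), Fcgr3a (0.91) and Ms4a7 (0.90). Those of Gpr15lg were Igf2bp2 (0.93), Des (0.92), the muscle intermediate filament desmin, and Mitf (0.92). The best matches were weaker for A2m, with Nog (0.85), Saa3 (0.84), an acute phase gene, and Cpxm1 (0.83), and for Tnn, with Ccl2 (0.85), Mme (0.81) and Tppp3 (0.78). Without the 2 tumors farthest from the gene's median, these r values ranged from 0.72 to 0.99. Within the 6 biphasic and epithelioid tumors they ranged from 0.16 to 0.98, the lowest being Clic3 with Tspan8 (0.16) and Wfdc18 with Ier3 (0.17), while Clic3 with Krt14 had 0.67. None of the genes named as most alike belongs to the 10.

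Mesothelial markers moved with the same split of tumor types. Of 12 mesothelial genes, 4 were called lower in sarcomatoid than in epithelioid tumors and none higher: Bnc1 (-5.66), Krt19 (-5.57), Krt7 (-5.27) and Lrrn4 (-4.03), each at a limma adjusted p from 0.023 to 0.042. Against biphasic tumors only Krt7 was called (-5.74, limma adjusted p = 0.041). All 12 differences were below 0 in both comparisons, with medians of -2.54 and -2.56 against -0.03 and -0.01 over all probe sets. Of 7 genes of keratinizing or basal epithelium 0 were called by limma, and their medians were -2.75 and -4.22. The part of a smaller share of epithelial mesothelial cells in the lower values of Myrf, Clic3, Anxa8, Wfdc18, Mal2 and Egfl6 was not tested. Other cell type lists had 0 genes called by limma in the same comparisons, and their differences, which did not pass, lay as follows. Natural killer cell genes had 7 of 7 differences above 0 against epithelioid and against biphasic tumors (medians 1.35 and 1.18). These rest in part on the sarcomatoid MWCNT D replicate 2, where the mean of the list was 10.1. In the other sarcomatoid tumors that mean was 5.99 to 7.55, which overlapped the biphasic tumors (5.07 to 7.62). The lowest of them, MWCNT C replicate 2 (5.99), also lay below the epithelioid MWCNT B replicate 1 (6.06). Macrophage genes had 5 of 5 differences above 0 in both comparisons (medians 0.99 and 0.49). Mast cell genes had 7 of 8 above 0 against epithelioid and 8 of 8 against biphasic tumors (medians 0.65 and 3.46), and adipocyte genes 2 of 4 and 4 of 4 (medians -0.06 and 1.85). Pancreatic genes (8) had medians of -1.32 and 1.68, and skeletal muscle genes (6) of -0.06 and 0.11. The pancreatic list was high only in the sarcomatoid MWCNT D replicate 2 (14.65) and the epithelioid amosite replicate 1 (15.39), so its medians rest on these tumors. The part of these cells in the values of the 10 genes was not tested.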

How the data were processed

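RNA of 11 rat peritoneal mesotheliomas and 3 sham-treated control tissues had been hybridized to Affymetrix rat genome arrays, 1 array for each sample. The deposited intensity values are linear signals that the authors normalized with PLIER in the Transcriptome Analysis Console. Of 31099 probe sets, 57 Affymetrix controls were left out and 31042 tested. Names came from the platform annotation, updated through RefSeq: 20826 probe sets had 1 symbol, 436 several and 9780 none. Signals were taken as log2(signal + 1). Groups came from the sample labels. Tumor types and inducers were compared among the 11 tumors with limma 3.58.1 in R 4.3.3 (lmFit and eBayes), with Benjamini-Hochberg adjustment over all probe sets and probe sets were called where the adjusted p was under 0.05 and the fold over 2. The number of arrays limits the precision. Whether the samples vary as separate animals or also by array handling was not separable, each animal having 1 array. The 10 genes and the 21 gene lists were chosen with earlier results of these data known. Genes alike were the 3 with the highest r over the tumors. Alternatives were a floor at 5, log2(signal + 16), a filter at a mean of 6, controls in the fit, no moderation, inducer or replicate number as a term, leaving out single arrays, and leaving out both tumors with pancreatic RNA. The fit was tested on simulated data.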

Additional observations from a re-analysis of the deposited data

Results flagged for a closer look

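In a check for samples far from the rest of their group, made for the 10 genes in the 5 sarcomatoid tumors, 2 of 10 groups passed Dixon's critical value of 0.710, where chance passes about 5% of groups. Wfdc18 in MWCNT C replicate 1 (11.69) lay above the other sarcomatoid tumors by a gap of 0.759 of the whole range. Gpr15lg in MWCNT D replicate 2 (7.09) lay below the others by a gap of 0.889 of the range. Myrf differed between sarcomatoid and epithelioid tumors (-3.45, limma adjusted p = 0.028). For Egfl6 every epithelioid tumor was above the control mean (by 3.17 on average) and every sarcomatoid tumor below it (-2.99 on average, or -0.99 with values below 5 raised to 5), and this opposite movement against the controls was not tested. A probe set annotated to Klra5 and 3 other Ly49 genes, which enters no comparison above, had a mean 3.12 higher in tumors (8.69) than in controls (5.57), with 11 of 11 tumors above all controls.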

How the results depend on the processing

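In sarcomatoid against epithelioid tumors the number of the 10 genes called by limma, 1 in the fit reported, was 2 with the floor at 5 (Myrf and Clic3), 2 with log2(signal + 16), 3 with the controls kept in the fit (Myrf, and Mal2 and Egfl6, whose place is fixed by the choice of genes), and 0 without moderation, 0 with inducer as a covariate and 0 without MWCNT D replicate 2 and amosite replicate 1. Leaving out single arrays gave 0 to 2. Any call of Clic3 in these settings, here or against biphasic tumors below, may also follow in part from how the genes were picked. The replicate number goes with tumor type, all epithelioid tumors being replicate 1. As a block it sets them against MWCNT C replicate 1 alone, the sarcomatoid tumor of that number, and Myrf differed by -2.83 there. Same-numbered tumors of different inducers had a median correlation of 0.054 (-0.29 to 0.392), which cannot tell pairing apart from tumor type. In sarcomatoid against biphasic tumors the number called, 0 in the fit reported, was 1 with log2(signal + 16) (Clic3), 1 with the filter (Myrf), 1 with the controls kept (Myrf), and 0 to 1 without single arrays. In the other 3 comparisons it was 0 in all settings run. The median difference of the 10 genes from controls was 3.71 with the floor, 4.75 with log2(signal + 16) and 7.61 to 8.14 without single arrays. Sign changes occurred only in differences that had passed no test. A2m against epithelioid tumors was 1.45 with the replicate block, which again sets MWCNT C replicate 1 alone against them. Against biphasic tumors A2m ran from -2.89 to 1.13 without single arrays. Klra5 ran from -1.002 to 1.62 against epithelioid and from -0.11 to 1.70 against biphasic tumors, and was -1.02 without both tumors with pancreatic RNA. Tnn ran from -0.98 to 1.94 (-1.29 without both) and Gpr15lg from -0.24 to 4.54 against epithelioid tumors. Egfl6 against controls was 0.66 with the floor, 0.22 with log2(signal + 16) and -0.81 to 0.13 without single arrays. The cause was not tested.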
